A study of Rattus norvegicus with 21 samples.

Results

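Atp2a2, Ryr2, Cacna1c and Gja1 carry the calcium cycle of the heart muscle cell and its electrical coupling to neighbouring cells. They were followed here through neonatal rat ventricular myocytes (NRVMs, primary cultures of beating heart cells taken from rat pups) in which the zinc finger transcription factor KLF2 was lowered or raised. The 4 genes were selected by Ensembl gene ID (ENSRNOG00000001285, ENSRNOG00000017060, ENSRNOG00000007090 and ENSRNOG00000000805, in that order) out of 30560 IDs in each of 2 count tables, and all 4 were kept because each lay above 10 CPM (counts scaled to a common library size) in siNeg cells. The tables list IDs without symbols, and the names used here come from the selection.

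Knockdown used small interfering RNA to Klf2 (siKlf2) against a control siRNA (siNeg), in 4 groups of 2 libraries, and overexpression used an adenovirus with Klf2 (Ad-Klf2) against a green fluorescent protein virus (Ad-GFP), in 4 groups of 3 libraries. In each design both arms were cultured without phenylephrine (PE), which stimulates α1-adrenergic receptors and makes cultured myocytes hypertrophic, and with 100 µM PE for 36 h. The timing of both designs differs, since siRNA was given 12 h ahead of PE, whereas the virus came 12 h after the start of PE and stayed for 24 h. All RNA samples carry the same PE treatment label, and those without PE were told apart by their titles and by a batch tag of 0 h against 36 h. This tag follows PE in every RNA library, so a difference with PE cannot be told apart from a difference of batch. Words such as raised or lowered describe only the difference between these libraries. Nothing in the labels says that replicates are separate cultures or animals, and p-values therefore reflect only the spread among these libraries, which may be technical.

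In a heart muscle cell, the L-type calcium channel, whose pore subunit is encoded by Cacna1c, opens with the action potential and admits a small amount of calcium. This calcium opens the ryanodine receptor, encoded by Ryr2, in the membrane of the sarcoplasmic reticulum, and the released store drives contraction. The pump SERCA2, encoded by Atp2a2, returns calcium to the store during relaxation, and the connexin Cx43, encoded by Gja1, forms the gap junction channels that pass the action potential between ventricular cells. Reduced SERCA2 and Cx43 are textbook features of hypertrophied and failing hearts.

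The RefSeq promoter sequences of the 3 genes that fell furthest with added Klf2 in the presence of PE are shown because these genes moved together in the overexpression libraries. KLF factors bind CACCC elements and GC boxes, and the stretches were searched on both strands for CACCC and GGGCGG, shown in capitals, with overlapping matches counted. Each is printed 5′ to 3′ in the direction of transcription and ends where the annotated gene begins, in build GRCr8, which is not the build of the counts.
Atp2a2, GRCr8 chr12:39733269-39733518, plus strand: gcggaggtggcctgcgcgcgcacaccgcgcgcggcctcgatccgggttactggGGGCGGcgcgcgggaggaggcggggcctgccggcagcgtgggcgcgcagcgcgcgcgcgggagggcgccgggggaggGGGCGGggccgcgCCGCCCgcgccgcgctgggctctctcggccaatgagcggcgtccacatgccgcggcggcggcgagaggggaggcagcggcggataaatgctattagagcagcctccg
Ryr2, GRCr8 chr17:63081277-63081526, plus strand: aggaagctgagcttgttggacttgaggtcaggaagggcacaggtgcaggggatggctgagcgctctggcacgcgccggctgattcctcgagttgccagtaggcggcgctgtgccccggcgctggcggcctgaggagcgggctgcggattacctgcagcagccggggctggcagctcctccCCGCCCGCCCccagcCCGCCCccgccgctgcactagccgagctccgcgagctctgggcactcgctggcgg
Gja1, GRCr8 chr20:36302314-36302489, plus strand: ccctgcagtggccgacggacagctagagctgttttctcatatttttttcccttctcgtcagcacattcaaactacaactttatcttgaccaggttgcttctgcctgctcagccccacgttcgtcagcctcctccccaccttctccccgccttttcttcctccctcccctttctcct
The Atp2a2 and Ryr2 stretches of 250 bases held 3 GC boxes each and no CACCC element. Their GC content was 80% and 72%. The Gja1 stretch of 176 bases held neither. In the full 250 bases before the listed transcript start, Gja1 had a GC content of 51.2% and a single match to the AP-1 motif TGANTCA, beyond the stretch printed, and Cacna1c had 2 matches to CACCC and no GC box. Among 33469 RefSeq promoters, 49.2% held CACCC, 30.5% held GGGCGG and 6.34% held TGANTCA in those 250 bases. These matches describe letters and not binding. Peaks of KLF2 near the genes were not analysed here.

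Libraries of the knockdown table held 181101876 to 224082309 counts and those for overexpression 32693762 to 76138723, and the least abundant member in any library, Gja1 in Ad-Klf2 with PE, still had 1696 to 3819 counts. The 3 Ad-GFP libraries without PE stood apart from the other libraries. They correlated with each other at 0.9902 to 0.9913 in log2 CPM across genes, against 0.9954 to 0.9981 among replicates of the other overexpression groups, and in 188 genes one of them had 0 counts while another had 50 or more, against at most 10 genes in any other overexpression group. Knockdown groups were not counted this way. Genes with 1 to 5 counts numbered 539, 776 and 548 in the Ad-GFP libraries without PE, against 1728 to 2022 in the other overexpression libraries. The cause of this difference was not tested. Klf2 itself and markers of cell types were not analysed here, so neither the level of Klf2 nor the share of myocytes in the cultures was checked. In such bulk samples fewer cells of a type and less RNA per cell cannot be told apart.

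**Figure D1:**
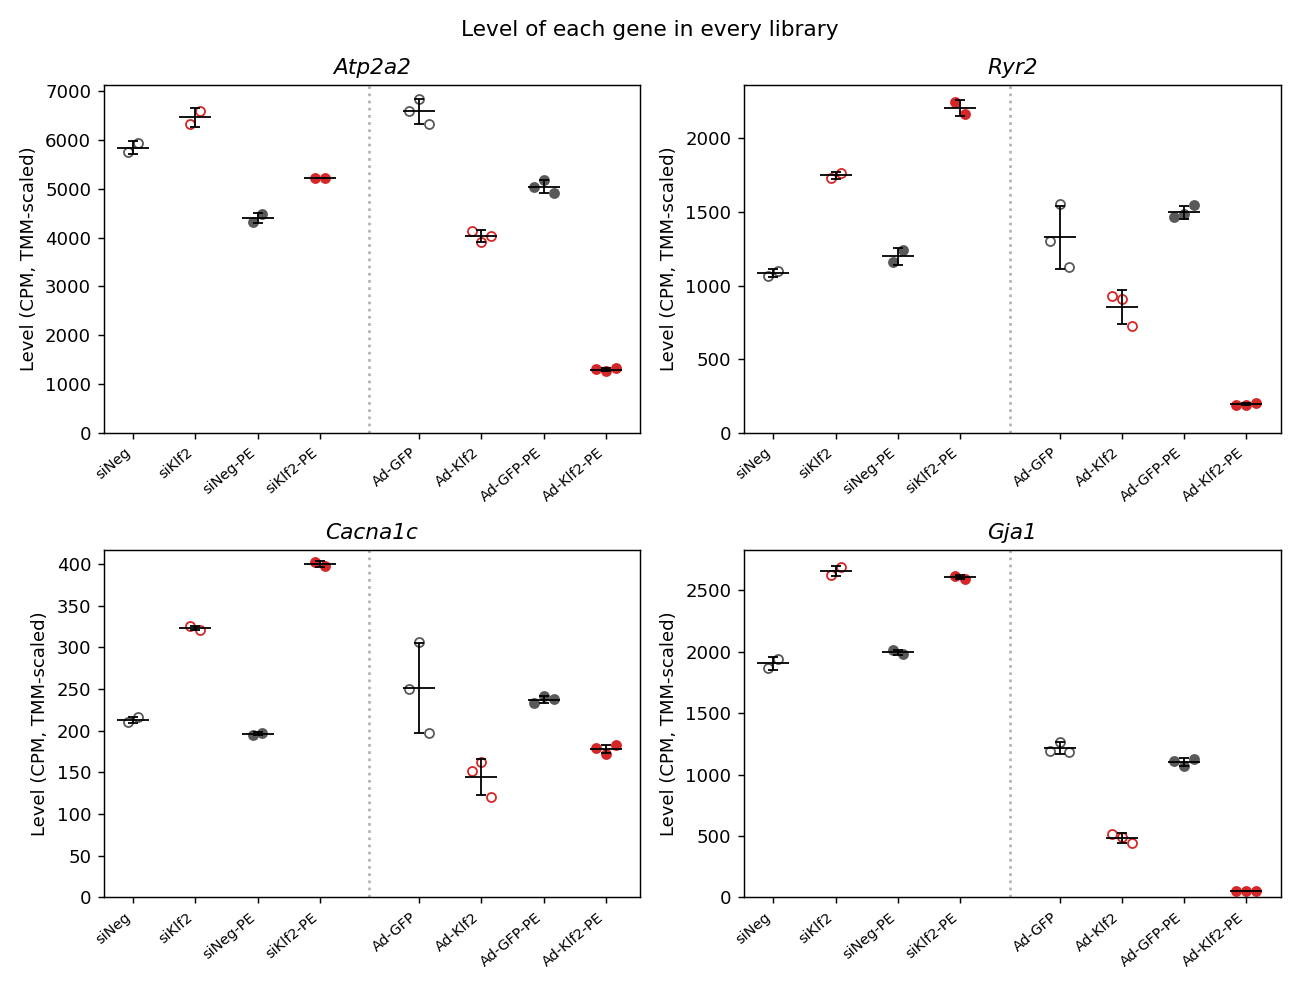
Level of each gene (y axis, CPM scaled by TMM factors, from 0) in each library of the 8 groups (x axis), with knockdown groups to the left of the dotted line and overexpression groups to the right. Circles are libraries (open without PE, filled with PE, red for siKlf2 or Ad-Klf2), and bars are the mean ± SD. Gja1 went from 1066 to 1129 CPM in Ad-GFP with PE to 51.79 to 55.41 CPM in Ad-Klf2 with PE.

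Control cells with and without PE were compared first. PE lowered Atp2a2 to a similar extent in both control arms, whereas the other 3 genes moved little. Of the 4 genes, 3 were called in siNeg, where 49.1% of 18173 tested genes were called, and 1 in Ad-GFP, where 34.6% of 16153 were called. Calls were made at an adjusted p below 0.05, and levels are CPM after TMM scaling of each library.

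Cacna1c, the calcium entry channel, lay at 210.9 and 216 CPM in siNeg and at 195.1 and 197.6 CPM in siNeg with PE. This small fall had a log2 fold change of -0.12 (SE 0.03, adjusted p = 0.00533 in edgeR) and was no longer called without siNeg replicate 2 (-0.10, edgeR adjusted p = 0.0747). In the virus arm it lay at 249.5, 306.1 and 197.8 CPM in Ad-GFP and at 233.6, 241.1 and 237.6 CPM in Ad-GFP with PE. The Ad-GFP libraries without PE thus spanned those with PE on both sides, and the log2 fold change of -0.08 (95% interval -0.32 to 0.16, edgeR adjusted p = 0.635) became 0.08 without Ad-GFP replicate 2. Ryr2, the release channel, lay at 1066 and 1102 CPM in siNeg and rose to 1159 and 1239 CPM with PE, which gave 0.15 on the log2 scale (SE 0.039, adjusted p = 0.00947 in edgeR). Leaving out siNeg replicate 1 removed that call (0.12, edgeR adjusted p = 0.0766). In Ad-GFP, Ryr2 lay at 1305, 1555 and 1128 CPM, overlapping the 1464, 1484 and 1545 CPM of Ad-GFP with PE. The log2 fold change was 0.17 (95% interval -0.02 to 0.37, edgeR adjusted p = 0.169), and it was called without Ad-GFP replicate 2 (0.30, edgeR adjusted p = 0.0103).

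Atp2a2, the calcium pump, lay at 5757 and 5942 CPM in siNeg and at 4329 and 4480 CPM in siNeg with PE, a 1.33-fold difference. All 3 Ad-GFP libraries with PE, at 5034, 5179 and 4912 CPM, lay below the Ad-GFP libraries at 6599, 6852 and 6338 CPM. The log2 fold changes were -0.41 (SE 0.037, adjusted p = 3.15e-06 in edgeR) in siNeg and -0.39 (SE 0.04, adjusted p = 5.08e-07 in edgeR) in Ad-GFP. Gja1, the gap junction gene, lay at 1868 and 1941 CPM in siNeg and at 2011 and 1979 CPM in siNeg with PE. Its values were 1190, 1269 and 1185 CPM in Ad-GFP and 1114, 1066 and 1129 CPM in Ad-GFP with PE. Neither difference passed the test, with log2 fold changes of 0.07 (95% interval -0.01 to 0.14, edgeR adjusted p = 0.123) and -0.14 (95% interval -0.25 to -0.03, edgeR adjusted p = 0.0543). The latter lay at the threshold and was called without Ad-GFP replicate 1 (-0.17, edgeR adjusted p = 0.0463) or replicate 3 (-0.17, edgeR adjusted p = 0.0299), and by DESeq2 with all libraries (-0.14, adjusted p = 0.0262).

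Whether loss of KLF2 alters these genes was asked by comparing siKlf2 with siNeg. With TMM scaling all 4 genes were higher after knockdown, without PE and with PE, whereas on library totals Atp2a2 was not (values below). On the TMM scale no siKlf2 library overlapped the siNeg libraries of the same PE state for any of them. How many of all tested genes were free of such overlap was not counted, so whether the separation is particular to these genes is not known. Among all 18173 tested genes, 27.2% were called higher without PE and 26.1% with PE. The median log2 fold change of the 4 genes was 0.54 without PE and 0.63 with PE, against -0.02 and -0.04 over all tested genes.

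Cacna1c lay at 325.3 and 321.4 CPM in siKlf2 and at 402.1 and 397.1 CPM in siKlf2 with PE. It showed the largest knockdown response of the 4 genes with PE, 2.04-fold (log2 fold change 1.03, SE 0.03, edgeR adjusted p = 4.21e-10), which placed it at rank 180 from the top among the 9026 genes averaging 10 CPM or more. Without PE it rose 1.51-fold (log2 fold change 0.60, SE 0.03, edgeR adjusted p = 2.49e-08). Ryr2 lay at 1734 and 1766 CPM in siKlf2 and at 2244 and 2168 CPM in siKlf2 with PE. Its rise was 1.61-fold without PE (log2 fold change 0.69, SE 0.04, edgeR adjusted p = 7.77e-08) and 1.84-fold with PE (log2 fold change 0.88, SE 0.04, edgeR adjusted p = 1.11e-08). The transcripts of the channels for calcium entry and release were therefore at their highest level of all 4 knockdown groups in siKlf2 with PE.

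Gja1 lay at 2628 and 2686 CPM in siKlf2 and at 2620 and 2594 CPM in siKlf2 with PE. It was 1.39-fold higher than in siNeg without PE (log2 fold change 0.48, SE 0.034, edgeR adjusted p = 3.89e-07) and 1.31-fold higher with PE (log2 fold change 0.39, SE 0.034, edgeR adjusted p = 2.14e-06). Atp2a2 changed least, with 6329 and 6604 CPM in siKlf2 and 5232 and 5228 CPM in siKlf2 with PE. On the log2 scale it was higher by 0.14 without PE (SE 0.037, adjusted p = 0.00605 in edgeR) and, with PE, higher by 0.25 (SE 0.037, adjusted p = 0.000154 in edgeR). The first was not called without siKlf2 replicate 2 (0.12, edgeR adjusted p = 0.0736). TMM factors were 1.12 and 1.125 in siNeg and 0.8705 and 0.8697 in siKlf2 with PE, and leaving these factors out shifted the log2 fold changes of all genes by a median of -0.20 without PE and -0.27 with PE (by -0.04 to -0.20 in the comparisons below). On that scale Atp2a2 did not rise, with -0.05 (edgeR adjusted p = 0.253) and -0.02 (edgeR adjusted p = 0.711), while the log2 fold change of Gja1 with PE shrank to 0.12 and those of Cacna1c and Ryr2 with PE were 0.76 and 0.61.

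**Figure D2:**
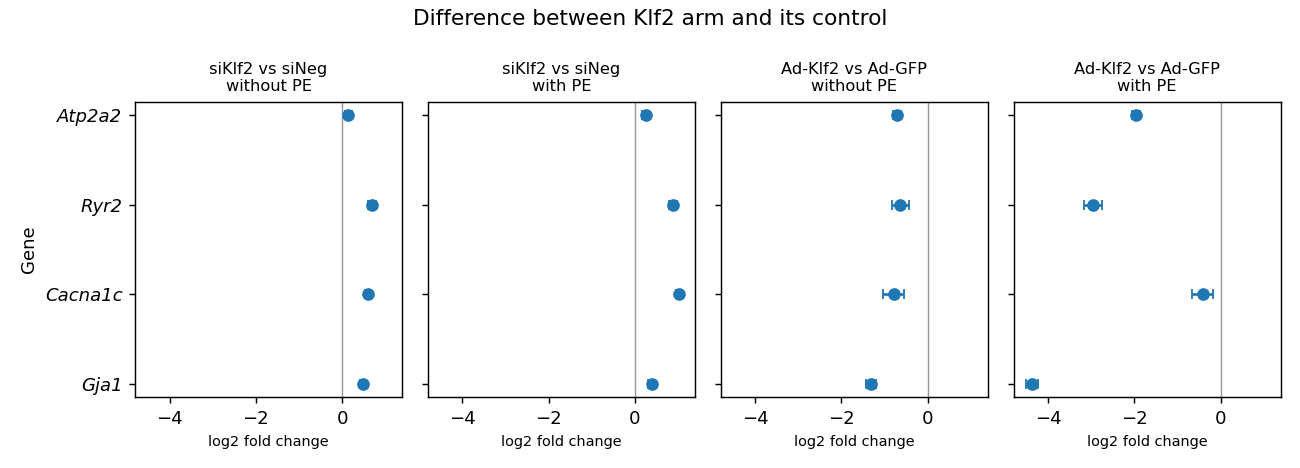
Log2 fold change (x axis) of each gene (y axis) between a Klf2 arm and its control, in 4 panels for knockdown and overexpression without and with PE. Points are edgeR estimates and bars 95% intervals, with all 16 points filled because all were called. With TMM scaling knockdown points lie right of 0 (those of Atp2a2 turn to -0.05 and -0.02 on library totals) and overexpression points left of 0, with Gja1 lowest at -4.37.

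Added Klf2 was then compared with Ad-GFP. Every one of the 4 genes was lower in Ad-Klf2, without PE and with PE. No Ad-Klf2 library overlapped the Ad-GFP libraries of the same PE state for these genes, but such overlap was not counted over all tested genes. The background was 15.1% of 16153 tested genes called lower without PE and 32.1% with PE. With PE the fall reached 20.6-fold for Gja1, 7.75-fold for Ryr2 and 3.89-fold for Atp2a2, but 1.33-fold for Cacna1c, and the 95% intervals of these 4 log2 fold changes did not overlap each other. The median log2 fold change of the members was -0.75 without PE and -2.46 with PE, against 0.00 and -0.03 over all tested genes.

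Gja1 fell furthest in both PE states. It lay at 515.9, 494 and 443.2 CPM in Ad-Klf2, a log2 fold change of -1.33 against Ad-GFP (SE 0.055, adjusted p = 1.01e-12 in edgeR). In Ad-Klf2 with PE it lay at 55.41, 53.17 and 51.79 CPM, which is -4.37 on the log2 scale (SE 0.063, adjusted p = 1.34e-19 in edgeR). Among the 9525 genes averaging 10 CPM or more this was rank 30 from the lowest without PE and rank 25 with PE. The transcript of the main ventricular connexin thus made up 0.105% to 0.109% of counts in Ad-GFP with PE and 0.00468% to 0.00502% in Ad-Klf2 with PE.

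Ryr2 lay at 928.1, 910.1 and 723.3 CPM in Ad-Klf2 and at 191.3, 188.3 and 200.2 CPM in Ad-Klf2 with PE. Its log2 fold change went from -0.64 without PE (SE 0.093, adjusted p = 2.33e-05 in edgeR) to -2.95 with PE (SE 0.1, adjusted p = 6.37e-15 in edgeR), the latter at rank 108 from the lowest. Atp2a2, at 4142, 3908 and 4041 CPM in Ad-Klf2, fell 1.64-fold without PE (log2 fold change -0.71, SE 0.041, edgeR adjusted p = 9e-11). With PE the pump transcript lay at 1299, 1263 and 1326 CPM, below every other library of the table, and its log2 fold change was -1.96 (SE 0.042, adjusted p = 1.14e-17 in edgeR). For Cacna1c the fitted deficit was smaller with PE than without, a difference that did not pass the interaction test given below. It lay at 151.5, 162.4 and 120.8 CPM in Ad-Klf2 (log2 fold change -0.79, SE 0.12, edgeR adjusted p = 2.18e-05) and at 179.7, 172.3 and 182.5 CPM in Ad-Klf2 with PE (log2 fold change -0.41, SE 0.11, edgeR adjusted p = 0.00395).

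The comparison without PE rests on the 3 Ad-GFP libraries that stood apart. In that group the SD of Cacna1c was 21.6% of the mean and that of Ryr2 16.2%, against 3.88% for Gja1 and 3.9% for Atp2a2, and replicate 2 was the highest for all 4 genes. Leaving it out gave log2 fold changes of -0.59 for Cacna1c and -0.47 for Ryr2, still called (edgeR adjusted p = 0.000116 and 0.00016). With the whole Ad-GFP group left out of the fit, the values with PE were -4.43 for Gja1, -3.02 for Ryr2, -2.03 for Atp2a2 and -0.48 for Cacna1c. All 4 were called there, among 11508 genes called higher or lower in that fit.

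The response to PE itself was compared between arms. In siKlf2 cells PE lowered Atp2a2 as it did in siNeg, with a log2 fold change of -0.31 (SE 0.037, adjusted p = 3.33e-05 in edgeR). The transcripts of both calcium channels rose, Ryr2 by 0.33 (SE 0.039, adjusted p = 2.88e-05 in edgeR) and Cacna1c by 0.31 (SE 0.029, adjusted p = 5.61e-06 in edgeR). Gja1 did not pass the test there (log2 fold change -0.03, 95% interval -0.10 to 0.05, edgeR adjusted p = 0.541). With TMM scaling 3 of the 4 genes were called in siKlf2, against 48.1% of all tested genes. On library totals the rises shrank to 0.16 for Ryr2 (edgeR adjusted p = 0.00308) and 0.13 for Cacna1c (edgeR adjusted p = 0.00538). Gja1 was then called lower, at -0.20 (edgeR adjusted p = 0.000736).

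The difference between the PE responses of siKlf2 and siNeg, the interaction term, was called for 2 of the 4 genes, against 14.4% of all tested genes. For Cacna1c the PE response was higher by 0.43 on the log2 scale after knockdown (SE 0.042, adjusted p = 7.78e-05 in edgeR), from a small fall in siNeg to a rise in siKlf2. For Ryr2 the difference was 0.19 (SE 0.056, adjusted p = 0.0454 in edgeR), and it was not called when any single library other than siNeg with PE replicate 2 was left out (0.14 to 0.23, edgeR adjusted p from 0.0573 to 0.167). For Atp2a2 and Gja1 the differences of 0.10 (95% interval -0.01 to 0.22) and -0.09 (95% interval -0.20 to 0.01) did not pass (edgeR adjusted p = 0.232 and 0.23).

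In Ad-Klf2 cells PE lowered Gja1 9.06-fold, Ryr2 4.42-fold and Atp2a2 3.11-fold, with log2 fold changes of -3.18 (SE 0.06, adjusted p = 1.35e-17 in edgeR), -2.14 (SE 0.097, adjusted p = 8.4e-13 in edgeR) and -1.64 (SE 0.042, adjusted p = 3.52e-16 in edgeR). Cacna1c went the other way, by 0.30 (SE 0.12, adjusted p = 0.0325 in edgeR). All 4 genes were called, against 61.3% of all tested genes. The rise of Cacna1c was the least secure of these, since it was called only without Ad-Klf2 replicate 2 when single libraries were left out. Its values without replicate 1 or 3 of Ad-Klf2 were 0.31 and 0.16 (edgeR adjusted p = 0.0679 and 0.276), and without replicate 1, 2 or 3 of Ad-Klf2 with PE they were 0.28, 0.29 and 0.27 (edgeR adjusted p = 0.0937, 0.085 and 0.106). Of 9 other settings, 1 lost the call, library totals (0.10, edgeR adjusted p = 0.446). The rise was called without the Ad-GFP group (0.26, edgeR adjusted p = 0.00429) and with only the 2 compared groups (0.26, edgeR adjusted p = 0.00438). It was also called by limma voom (0.28, adjusted p = 0.000467).

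**Figure D3:**
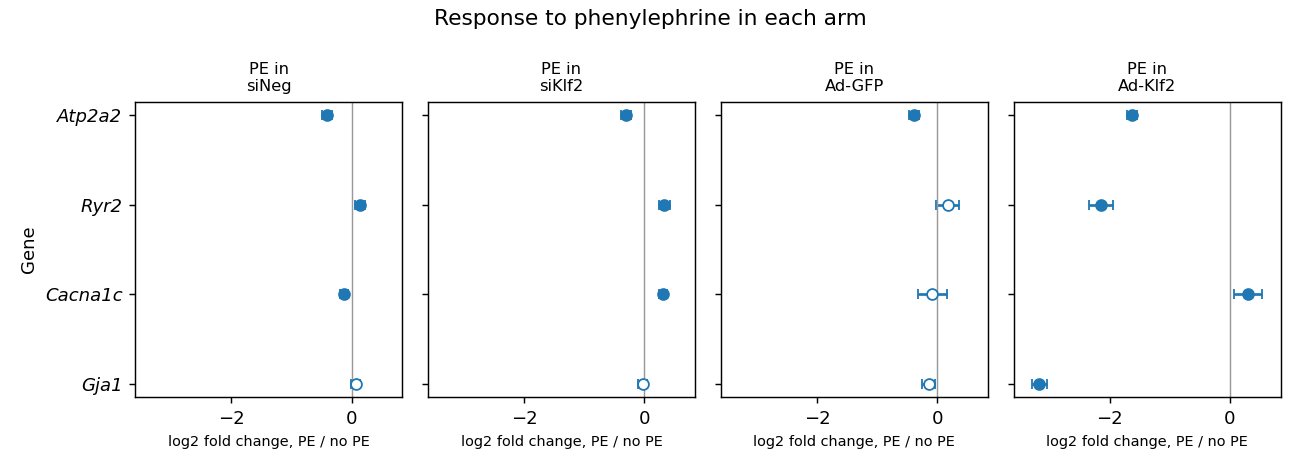
Log2 fold change with PE (x axis) of each gene (y axis) in the 4 arms. Points are edgeR estimates and bars 95% intervals, filled where the gene was called. Atp2a2 lies left of 0 in every panel, and Ryr2 and Gja1 reach -2.14 and -3.18 in Ad-Klf2.

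The PE responses of Ad-Klf2 and Ad-GFP differed for 3 of the 4 genes, against 49.1% of all tested genes. The interaction was -3.04 for Gja1 (SE 0.079, adjusted p = 1.82e-15 in edgeR), -2.32 for Ryr2 (SE 0.13, adjusted p = 5.99e-11 in edgeR) and -1.25 for Atp2a2 (SE 0.057, adjusted p = 2.74e-12 in edgeR). For Cacna1c it was 0.38 (95% interval 0.04 to 0.72), which missed the threshold (edgeR adjusted p = 0.0625). It was called without Ad-GFP replicate 3 (0.52, edgeR adjusted p = 0.00223) or Ad-Klf2 replicate 2 (0.46, edgeR adjusted p = 0.0374), while without Ad-GFP replicate 2 it was 0.20 (edgeR adjusted p = 0.247). With all libraries it was called using RLE factors (edgeR adjusted p = 0.0375), no filter (edgeR adjusted p = 0.0126), halved counts (edgeR adjusted p = 0.0469) or limma voom (adjusted p = 0.00746), but not using library totals (edgeR adjusted p = 0.104) or DESeq2 (adjusted p = 0.0958).

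Set in order within the knockdown table on the TMM scale, the 4 groups did not overlap for any of the 4 genes. Overlap between groups was not counted over all tested genes, here or in the overexpression table. Separation could be narrow, as for Gja1 in siKlf2 (2628 and 2686 CPM) and siKlf2 with PE (2620 and 2594 CPM), a difference not called. Atp2a2 went from siKlf2, siNeg and siKlf2 with PE down to siNeg with PE, that is from a mean of 6467 ± 194 to 4405 ± 107 CPM (SD, n = 2). Ryr2 and Cacna1c were highest in siKlf2 with PE, at 2206 ± 54.1 and 399.6 ± 3.56 CPM (SD, n = 2), followed by siKlf2. Gja1 was higher in both siKlf2 groups, at 2657 ± 41.2 and 2607 ± 18.5 CPM (SD, n = 2), than in both siNeg groups. On library totals the order of Atp2a2 turned within each PE state, with siNeg at 6447 and 6685 CPM above siKlf2 at 6263 and 6401 CPM, and siNeg with PE at 4585 and 4624 CPM above siKlf2 with PE at 4554 and 4547 CPM. The siNeg groups with and without PE also overlapped there for Ryr2 and Gja1. In the overexpression table Atp2a2 and Gja1 both followed the order Ad-GFP, Ad-GFP with PE, Ad-Klf2, Ad-Klf2 with PE without overlap, from 6597 ± 257 to 1296 ± 31.4 CPM and from 1215 ± 47.1 to 53.46 ± 1.83 CPM (SD, n = 3). Ryr2 and Cacna1c overlapped between Ad-GFP and Ad-GFP with PE, and Cacna1c alone was lowest in Ad-Klf2 without PE, at 144.9 ± 21.6 CPM (SD, n = 3), with Ad-Klf2 with PE next at 178.2 ± 5.32 CPM (SD, n = 3). These 2 groups overlapped for Cacna1c on library totals.

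The genes paired differently in the 2 tables. Across the 8 knockdown libraries, Pearson correlations of log2 (CPM + 1) were 0.97 between Ryr2 and Cacna1c, 0.94 between Ryr2 and Gja1 and 0.93 between Cacna1c and Gja1, whereas Atp2a2 reached 0.22 to 0.42 with the others. Across the 12 overexpression libraries, Atp2a2, Ryr2 and Gja1 correlated at 0.97 to 0.99 with each other, and Cacna1c at 0.45 to 0.49 with them. These libraries share groups, so the values describe the group pattern and carry no test. Among 8766 other genes with at least 10 CPM in both tables, the ID whose pattern was most like Gja1, by the smaller of its correlations in both tables, was ENSRNOG00000010224 (0.993). For Ryr2 it was ENSRNOG00000015602 (0.993) and for Atp2a2 ENSRNOG00000016343 (0.993). For Cacna1c the closest ID, ENSRNOG00000010217, reached 0.918, and 2 genes reached 0.9, against 122 genes for Atp2a2, 249 for Ryr2 and 208 for Gja1. By Spearman correlation another ID was closest for each of the 4 genes, and 0 genes reached 0.9 for Cacna1c, 4 for Gja1 and 53 each for Atp2a2 and Ryr2, so the choice of measure decided both the IDs and the counts. The files do not pair these IDs with symbols.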

How the data were processed

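Library preparation started from 400 ng of RNA per sample, per the labels' protocols. Per the submitters' processing notes, the authors used Trim Galore, STAR and featureCounts on build mRatBN7.2 (tool versions are not given in the sources used here). Values in the 2 deposited tables are raw counts by Ensembl ID, not normalised. The strand setting and the handling of multiply mapped reads are not given in the sources used here. The peak list of the CUT&Tag library was not used here, because no annotation of its build was at hand to place peaks.

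Each table was analysed separately with edgeR 4.0.16 in R 4.3.3. The filterByExpr filter (minimum count 10, minimum total 15) left 18173 and 16153 genes. A quasi-likelihood fit with TMM factors took in all 4 groups of each table. Tests were two-sided, adjusted by the Benjamini-Hochberg method over all genes of a contrast, with a threshold of 0.05. SE is the log2 fold change divided by the root of the F statistic. The biological coefficient of variation was 0.049 and 0.132. Every member had 1696 counts or more in each library, and SEs and intervals include the spread between libraries. Fits were also run on simulated data with the same spread in all groups of a table, and no result above rests on them. Alternatives used DESeq2 1.42.0 and limma 3.58.1. A further fit without the Ad-GFP group was chosen after seeing the data.

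The members, lists and tests were chosen with earlier results of these data known. The rule named the 4 members in every comparison, and the closest ID per member by correlation. Lists of other calcium handling, junction and cell type marker genes were drawn up by symbol, but 0 reference genes carried an Ensembl ID, so they were not used. Promoters of 4 of 4 members were matched by symbol in RefSeq (GRCr8) with Python 3.11.15 and pandas 2.3.3, and figures were drawn with matplotlib 3.10.9.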

Additional observations from a re-analysis of the deposited data

Results flagged for a closer look

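The PE response differed between a Klf2 arm and its control, by the interaction test, for 5 pairs of gene and table. In the knockdown table these were Cacna1c, with a log2 difference of 0.43 (edgeR adjusted p = 7.78e-05), and Ryr2, with 0.19 (edgeR adjusted p = 0.0454). In the overexpression table they were Gja1, with -3.04 (edgeR adjusted p = 1.82e-15), Ryr2, with -2.32 (edgeR adjusted p = 5.99e-11), and Atp2a2, with -1.25 (edgeR adjusted p = 2.74e-12). The Ryr2 difference thus had opposite signs after knockdown and overexpression, but its knockdown value lay near the threshold. That value was not called on library totals (0.12, edgeR adjusted p = 0.166) or with halved counts (0.19, edgeR adjusted p = 0.0508). The overexpression values include the Ad-GFP libraries without PE that stood apart, and the 2 tables were not compared in a test.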

How the results depend on the processing

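Of 560 values of a member under an alternative, 518 kept their direction and their side of the threshold, 19 kept their direction but lost a call, 19 gained one and 4 changed sign, of which 2 also lost a call. Those 2 were the knockdown values of Atp2a2 with library totals in place of TMM factors, -0.05 without PE and -0.02 with PE. On the same scale the PE response of Gja1 in siNeg became -0.04, and that in siKlf2 became -0.20 and was called. Further calls lost on that scale were those for Ryr2 with PE in siNeg (0.04), for the Ryr2 interaction in the knockdown table (0.12) and for Cacna1c with PE in Ad-Klf2 (0.10). Counts halved to allow for fragments counted at both mates also lost the Ryr2 interaction (0.19, edgeR adjusted p = 0.0508), so that 1 member in place of 2 was called there under either setting. DESeq2 called Gja1 with PE in siNeg (0.08). For Gja1 with PE in Ad-GFP a call was gained, making 2 members in place of 1, with RLE factors, DESeq2, limma voom with quality weights, only the compared groups and halved counts (-0.14 each), with no filter (-0.15) and with totals (-0.28). The Cacna1c interaction in the overexpression table was called with RLE factors (0.43), no filter (0.34), voom (0.36) and halved counts (0.37). With a replicate block it was also called (0.38, edgeR adjusted p = 0.0324), and the block changed no other call of a member. Same-numbered libraries correlated in their deviations at -0.331 to 0.346 in the knockdown table and at -0.257 to 0.176 in the overexpression table. These values cannot decide whether the numbers pair libraries, because differently numbered libraries were not compared. In the knockdown table the 2 libraries of a group also deviate by mirrored amounts.

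Leaving out single libraries gave ranges of 0.12 to 0.19 for Atp2a2 in siKlf2 without PE, 0.10 to 0.19 for Ryr2 and -0.14 to -0.10 for Cacna1c with PE in siNeg, and 0.14 to 0.24 for the Ryr2 interaction in the knockdown table (1 to 2 members called). With PE in Ad-GFP they were 0.05 to 0.30 for Ryr2, -0.24 to 0.08 for Cacna1c and -0.17 to -0.11 for Gja1 (1 to 2 members called). The Cacna1c ranges were 0.16 to 0.37 with PE in Ad-Klf2 and 0.20 to 0.52 for the overexpression interaction. Over all genes, 2622 were called for the knockdown interaction, and 1553 to 3312 when single libraries were left out. In knockdown fits a library left alone in its group was taken to vary like the other groups. The cause of these changes was not tested. The distance of KLF2 peaks to the genes, and its alternative with a stricter peak threshold, were not run. With Spearman in place of Pearson correlation the closest ID changed for all 4 genes, to ENSRNOG00000021213 for Atp2a2 (0.986), ENSRNOG00000015488 for Ryr2 (0.958), ENSRNOG00000015072 for Cacna1c (0.881) and ENSRNOG00000048205 for Gja1 (0.965). The IDs closest by Pearson had Spearman values of 0.78 or more in both tables.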
